A study of Homo sapiens with 24 samples.

Results

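This report covers 57 genes of the DNA damage checkpoint and of DNA repair outside homologous recombination, followed in the human pancreatic carcinoma lines BXPC3, MIAPACA2 and PSN1, all 3 long-established. The rule names the genes by function as a list of symbols and holds no threshold on measured values, though the list was drawn up with earlier results of these data known. Each of the 57 symbols matched a row among the 60366 entries of the count table. The lines were treated for 6 days with AM-9747 or with DMSO vehicle. AM-9747 inhibits the arginine methyltransferase PRMT5 in cooperation with methylthioadenosine, a metabolite that builds up when the enzyme MTAP is lost. It was given at 100 nM to BXPC3 and PSN1 and at 150 nM to MIAPACA2, which means that in MIAPACA2 any effect of the line and any effect of its dose cannot be told apart. The groups were BXPC3 with AM-9747 and with vehicle, MIAPACA2 with AM-9747 and with vehicle, and PSN1 with AM-9747 and with vehicle, with 4 libraries in each of the 6 groups and 24 in all. The submitters describe all 3 lines as MTAP-deleted, while the labels give their genotype as WT. MTAP averaged 0.858 CPM with AM-9747 and 0.276 CPM with vehicle in BXPC3, 1.13 with AM-9747 and 0.674 with vehicle in MIAPACA2, and 1.60 with AM-9747 and 2.68 with vehicle in PSN1. CPM is a gene's count per M counts (M for mega) of its library's scaled total.

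Cells answer DNA damage in layers. Sensor kinases of the ATM and ATR branches detect breaks and stalled replication forks, and clamps and mediator proteins pass the signal to CHEK1, CHEK2 and WEE1, which hold the cell cycle. The lesion itself is handled by pathways matched to its kind. Excision repair removes bulky adducts or single damaged bases, mismatch repair corrects replication errors, end joining rejoins broken ends without a template, and direct reversal strips alkyl groups from bases. Many of these genes are transcribed throughout the cell cycle, while others, CHEK1 among them, are known to follow DNA replication. Arginine methylation by PRMT5 acts on histones and on proteins of the spliceosome.

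RNA was measured as counts per gene in poly(A) libraries, with totals of 22.4 to 45.6 M counts. Transcripts of the mitochondrial genome took 7.98 to 31.1% of the counts in PSN1 AM-9747 libraries and 17.4 to 43.8% in PSN1 vehicle libraries, against 4.34 to 10.2% in BXPC3 and 6.58 to 20.5% in MIAPACA2. PSN1 vehicle library 3 had the lowest total and detected 16646 genes, and its mean correlation with the other libraries of its group was 0.864. Replicates varied most in PSN1, where edgeR's biological coefficient of variation reached 55.3%, with 32.1% for MIAPACA2 and 26.6% for BXPC3. The labels do not say that libraries of a group came from separate cultures, and the p-values therefore reflect only how these samples spread, which may be technical. In these bulk samples, fewer cells of a type and less RNA per cell cannot be told apart. PRMT5 itself did not pass the test in BXPC3 (log2 fold change 0.31 ± 0.13, adjusted p 0.104) or MIAPACA2 (-0.09 ± 0.24, adjusted p 0.837) and was higher with AM-9747 in PSN1 (0.99 ± 0.26, adjusted p 0.0346). Its level does not show how far the enzyme was inhibited.

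Markers of cell identity differed between lines and moved with treatment. The summed level of 6 epithelial markers was 5239 to 7672 CPM with AM-9747 and 7309 to 12726 CPM with vehicle in BXPC3, where KRT19 was lower with AM-9747 (-0.80 ± 0.26, adjusted p 0.0415). It was 1168 to 1388 CPM with AM-9747 and 1234 to 1588 CPM with vehicle in MIAPACA2, where EPCAM, KRT7 and CDH1 averaged below 1 CPM, and 1573 to 1826 CPM with AM-9747 and 1683 to 2252 CPM with vehicle in PSN1, where CDH1 averaged 1.60 CPM with AM-9747 and 0.625 CPM with vehicle. EPCAM was nevertheless called higher in MIAPACA2 (adjusted p 0.02098). The 5 mesenchymal markers summed to 49.5 to 56.5 CPM with AM-9747 and 30.04 to 37.5 CPM with vehicle in BXPC3, without overlap, and VIM (1.06 ± 0.21, adjusted p 0.00495), SPARC (1.94 ± 0.25, adjusted p 0.000528) and COL1A1 (0.48 ± 0.15, adjusted p 0.0392) were higher there. They summed to 5940 to 7715 CPM with AM-9747 and 7964 to 9652 CPM with vehicle in MIAPACA2, and to 1475 to 2205 CPM with AM-9747 and 753 to 2343 CPM with vehicle in PSN1, where SPARC averaged 62.9 CPM with AM-9747 and 6.14 CPM with vehicle (3.34 ± 0.59, adjusted p 0.00826). The 5 leukocyte markers summed to 7.56 to 24.2 CPM with AM-9747 and 34.96 to 39.7 CPM with vehicle in BXPC3, where CD68 averaged 12.2 CPM with AM-9747 and 31.9 CPM with vehicle (-1.38 ± 0.43, adjusted p 0.0362). Their sum was 6.04 to 23.6 CPM with AM-9747 and 3.35 to 12.8 CPM with vehicle in MIAPACA2, and 19.7 to 69.96 CPM with AM-9747 and 17.7 to 56.7 CPM with vehicle in PSN1, where CD14 averaged 29.1 CPM with AM-9747 and 24.7 CPM with vehicle. PTPRC, which defines leukocytes, was at or below 0.51 CPM in each library. The 3 endothelial markers summed to 29.5 to 34.3 CPM with AM-9747 and 15.6 to 20.5 CPM with vehicle in BXPC3, where CDH5 (1.11 ± 0.14) and VWF (1.65 ± 0.23) were higher and PECAM1 (-1.001 ± 0.22) lower. In PSN1 they summed to 16.8 to 25.9 CPM with AM-9747 and 30.1 to 39.2 CPM with vehicle, and in MIAPACA2 they stayed below 1 CPM. The part of these markers in the results for the 57 genes was not tested.

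None of the 57 genes passed the test of AM-9747 against vehicle in all 3 lines, and 7 passed in 2. The number of lines in which a gene passed was not counted over all genes. In BXPC3, 4 genes were higher with AM-9747 and 14 lower, and all 5 mismatch repair genes, all 3 direct reversal genes and 5 of 7 glycosylases had log2 fold changes below 0. In MIAPACA2, 4 genes were higher and 6 lower, led by OGG1, ERCC1 and WEE1 among the lower and by LIG4, DDB2 and ATM among the higher. In PSN1, 5 genes were higher (CHEK1, HUS1, TOPBP1, APEX2 and ERCC3) and 0 lower. All 57 were tested in each line. A call means an adjusted p below 0.05, by Benjamini-Hochberg over all genes tested in the line, from edgeR's quasi-likelihood test of that line, and log2 fold changes are AM-9747 over vehicle ± SE.

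The share of the 57 called lower in BXPC3 and MIAPACA2 and called higher in PSN1 lay above that of all genes, and the share called higher in BXPC3 and lower in PSN1 lay below it; no test of these shares was made. Of all genes tested, 13.1% were called higher and 16.0% lower in BXPC3 (29.2% in either direction), 6.33% higher and 7.47% lower in MIAPACA2 (13.8%), and 4.49% higher and 5.53% lower in PSN1 (10.0%). The median log2 fold change over the 57 genes was -0.16 in BXPC3, where it was -0.00 over all genes tested. In MIAPACA2 it was -0.16 for the 57 and -0.03 for all genes, and in PSN1 it was 0.28 for the 57 and 0.08 for all genes. Beside the 0 lower in PSN1 by edgeR, 11 of the 52 genes not called there had an unadjusted p below 0.05 in either direction. DESeq2 called 11 of the 57 higher and 2 lower there, against 1697 higher and 1984 lower of 18287 genes tested. By limma-voom 15 of the 57 were higher and 4 lower, against 3201 higher and 2456 lower of the same 18287. In PSN1 39 of the 57 genes had a log2 fold change above 0, against 18 in BXPC3 and 25 in MIAPACA2. Over all genes tested it was above 0 for 9703 of 18287 in PSN1, 8797 of 17638 in BXPC3 and 8651 of 18090 in MIAPACA2. With library totals in place of TMM scaling, the median of all genes shifted to 0.15 in MIAPACA2 and 0.37 in PSN1, and the share of calls that were higher went to 75.0% in place of 45.9% in MIAPACA2 and to 69.1% in place of 44.8% in PSN1. The 57 genes then gave 5 higher and 2 lower in MIAPACA2 and 9 higher and 0 lower in PSN1.

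**Figure D1:**
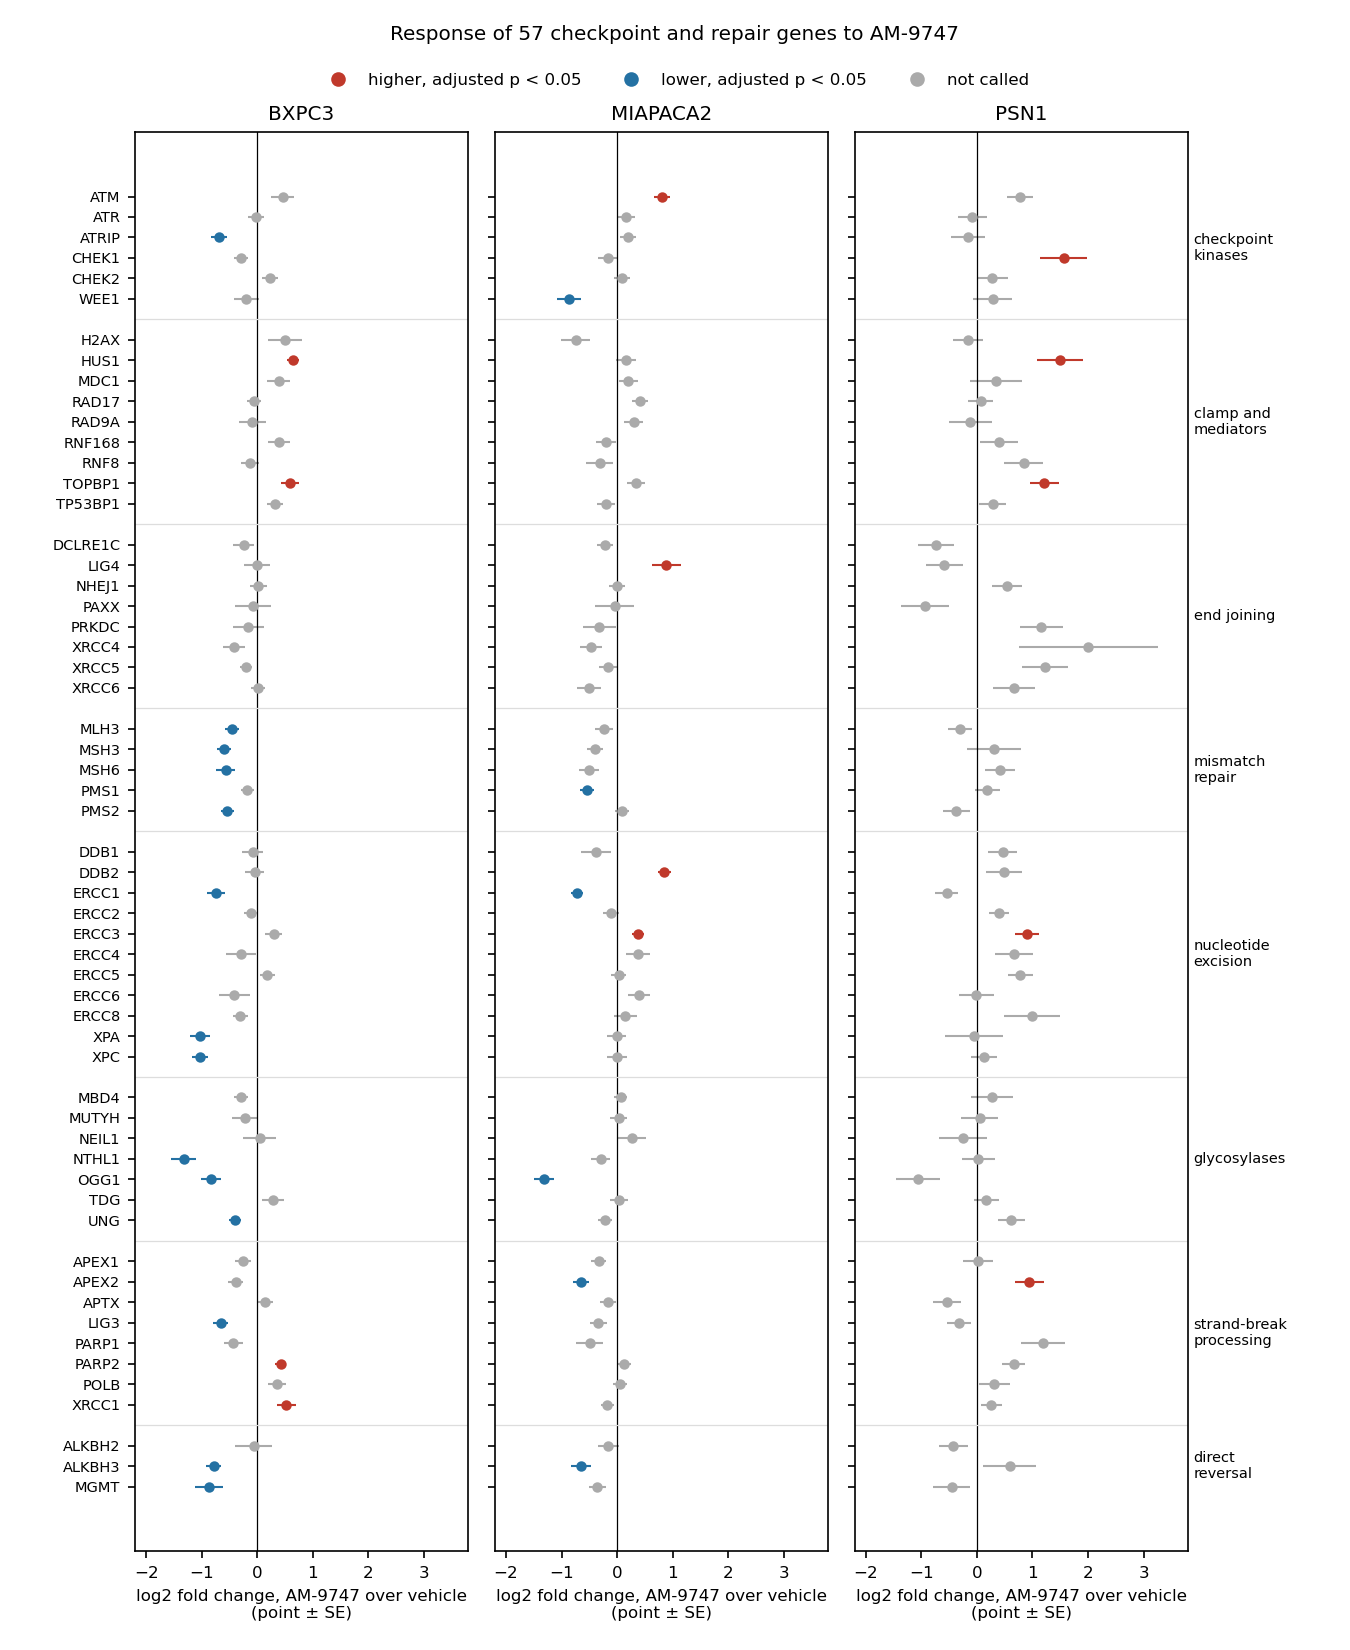
Log2 fold change of AM-9747 over vehicle (horizontal axis, bars ± SE) for the 57 genes, grouped by role, in BXPC3, MIAPACA2 and PSN1 (4 AM-9747 and 4 vehicle libraries per line). Red points are called higher and blue points lower at adjusted p below 0.05, and grey points are not called. BXPC3 has 14 blue points and 4 red, MIAPACA2 6 blue and 4 red, and PSN1 5 red and 0 blue, with wider bars in PSN1.

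Of the 57 genes, 31 were called in no line, 19 in 1 line and 7 in 2 lines. The 7 were OGG1, ERCC1 and ALKBH3, lower in BXPC3 and MIAPACA2; HUS1 and TOPBP1, higher in BXPC3 and PSN1; ERCC3, higher in MIAPACA2 and PSN1; and APEX2, lower in MIAPACA2 and higher in PSN1. By GENCODE 29 on GRCh38, OGG1 (ENSG00000114026) lies at chr3:9749944-9788219, ALKBH3 (ENSG00000166199) at chr11:43880811-43920266 and APEX2 (ENSG00000169188) at chrX:55000357-55009057, all on the plus strand. On the minus strand, TOPBP1 (ENSG00000163781) lies at chr3:133598175-133662380, HUS1 (ENSG00000136273) at chr7:47963288-47979553, ERCC1 (ENSG00000012061) at chr19:45407333-45478828 and ERCC3 (ENSG00000163161) at chr2:127257290-127294176. The sign of the log2 fold change was the same in all 3 lines for 20 of the 57. Of the 14 genes called lower in BXPC3, 11 had the same sign in MIAPACA2 and 8 in PSN1. Calls and signs shared between lines were not counted over all genes.

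The sequence just before the start of transcription is shown for 4 genes on which the comparisons turn: OGG1, called lower in 2 lines; APEX2, called in opposite directions in 2 lines; UNG, whose response differed between lines; and DDB2, called higher in MIAPACA2 and the gene whose vehicle level differed most firmly between lines. Each is the 250 bases before the RefSeq start on GRCh38.p14, plus strand, written 5′ to 3′. The windows are chr3:9749702-9749951 for OGG1, chrX:55000113-55000362 for APEX2, chr12:109097347-109097596 for UNG and chr11:47214204-47214453 for DDB2. Capitals mark matches to TTCCCGC or TTGGCGC (the E2F motif, bound by factors of DNA replication genes) and to CCAAT (bound by NF-Y), searched on both strands; in OGG1 an E2F match and a CCAAT match on the minus strand overlap.
OGG1: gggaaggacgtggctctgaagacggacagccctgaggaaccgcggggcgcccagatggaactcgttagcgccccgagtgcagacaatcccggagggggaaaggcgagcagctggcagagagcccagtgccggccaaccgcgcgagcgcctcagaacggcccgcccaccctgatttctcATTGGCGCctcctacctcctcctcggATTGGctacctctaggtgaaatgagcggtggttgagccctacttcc
APEX2: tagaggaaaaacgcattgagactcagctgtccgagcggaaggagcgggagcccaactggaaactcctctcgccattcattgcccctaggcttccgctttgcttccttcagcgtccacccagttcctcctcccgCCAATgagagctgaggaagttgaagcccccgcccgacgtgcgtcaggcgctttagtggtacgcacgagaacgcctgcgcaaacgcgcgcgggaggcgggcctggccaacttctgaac
UNG: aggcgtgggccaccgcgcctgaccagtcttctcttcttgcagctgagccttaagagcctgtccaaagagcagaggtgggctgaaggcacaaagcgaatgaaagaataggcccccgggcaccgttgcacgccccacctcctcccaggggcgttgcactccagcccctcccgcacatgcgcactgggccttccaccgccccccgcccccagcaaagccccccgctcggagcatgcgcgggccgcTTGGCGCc
DDB2: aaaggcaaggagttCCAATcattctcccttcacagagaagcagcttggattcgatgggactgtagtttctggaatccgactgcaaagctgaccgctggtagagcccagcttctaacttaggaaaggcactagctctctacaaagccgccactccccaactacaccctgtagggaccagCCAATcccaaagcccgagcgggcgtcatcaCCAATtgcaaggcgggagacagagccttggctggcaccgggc
OGG1 has its E2F match 71 to 65 bases before the start and CCAAT matches at 72 to 68 and 46 to 42. In APEX2 the only match is a CCAAT at 117 to 113, in UNG the only match is an E2F at 8 to 2, and DDB2 holds CCAAT at 236 to 232, 72 to 68 and 42 to 38. Of the 57 genes, 52 had such a window in the RefSeq table; HUS1, WEE1, PRKDC, XRCC5 and POLB did not. An E2F match lay in 14 of the 52 windows (26.9%), against 10.6% of 15843 windows of protein-coding genes. CCAAT matched in 48.1% against 34.5%, the ETS motif CCGGAAGT in 15.4% against 5.09%, and the NRF1 motif in 1.92% against 1.48%. A match describes these letters only, and annotated exons of the shown genes reach 8, 6, 23 and 0 bases into the windows of OGG1, APEX2, UNG and DDB2.

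Among the checkpoint kinases, CHEK1 was higher with AM-9747 in PSN1, ATM was higher and WEE1 lower in MIAPACA2, and ATRIP was lower in BXPC3. The group of 6 thus gave 0 higher and 1 lower in BXPC3, 1 higher and 1 lower in MIAPACA2, and 1 higher and 0 lower in PSN1. The other kinases, ATR and CHEK2, were called in no line, with log2 fold changes of -0.08 to 0.28.

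CHEK1 is the kinase that ATR activates to restrain replication and mitotic entry. In PSN1, CHEK1 stood at 20.9, 18.3, 15.5 and 16.3 CPM in AM-9747 libraries 1 to 4, against 7.45, 9.32, 1.87 and 5.37 CPM in vehicle libraries 1 to 4 (log2 fold change 1.56 ± 0.43, adjusted p 0.04302); values per library are given in this replicate order throughout. Levels of CHEK1 in BXPC3 were 25.9, 23.04, 24.1 and 20.6 CPM with AM-9747 and 29.3, 28.5, 32.1 and 24.3 with vehicle (-0.29 ± 0.13, adjusted p 0.122), and those in MIAPACA2 were 22.6, 20.2, 26.8 and 22.2 CPM with AM-9747 and 20.2, 33.2, 28.8 and 20.8 CPM with vehicle (-0.17 ± 0.18, adjusted p 0.585). The PSN1 groups do not overlap, since its lowest AM-9747 library lies above its highest vehicle library, and the PSN1 vehicle libraries hold the lowest CHEK1 of the study. The PSN1 call ended without any 1 of AM-9747 libraries 1, 2, 3 and 4 or vehicle libraries 2 and 4 (adjusted p up to 0.128).

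WEE1 phosphorylates CDK1 and delays mitosis. In MIAPACA2, WEE1 stood at 13.9, 13.6, 21.4 and 14.6 CPM with AM-9747, against 22.03, 37.2, 33.9 and 22.6 CPM with vehicle (log2 fold change -0.87 ± 0.22, adjusted p 0.0249). The groups stayed apart, though AM-9747 library 3 lay close to vehicle library 1. The call ended without any 1 of AM-9747 libraries 1, 2 and 4 or vehicle libraries 2 and 3 (adjusted p up to 0.0869). WEE1 did not pass in BXPC3 (-0.20 ± 0.23, adjusted p 0.565) or in PSN1 (0.28 ± 0.35, adjusted p 0.634), where AM-9747 library 1 at 26.1 CPM stood far above the other 3.

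ATM, the kinase that double-strand breaks activate, averaged 153 ± 25.6 CPM with AM-9747 and 87.3 ± 12.2 CPM with vehicle in MIAPACA2 (SD, n = 4 each; log2 fold change 0.81 ± 0.15, adjusted p 0.00669), and the groups did not overlap. The call held with each library left out in turn. ATM had the same sign in PSN1 (0.77 ± 0.23, adjusted p 0.0606) and BXPC3 (0.46 ± 0.21, adjusted p 0.1302), where it did not pass. ATRIP, the partner that brings ATR to single-stranded DNA, averaged 6.28 ± 0.675 CPM with AM-9747 and 10.2 ± 0.837 CPM with vehicle in BXPC3 (log2 fold change -0.69 ± 0.14, adjusted p 0.00586), without overlap. ATRIP shares 27.9% of its exon bases with TREX1 on the same strand, and reads there cannot be assigned to either gene; TREX1 had a log2 fold change of -0.27 in BXPC3 (adjusted p 0.290).

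Of the 9 checkpoint clamp and mediator genes, TOPBP1 and HUS1 were higher with AM-9747 in both BXPC3 and PSN1 and the other 7 were called in no line. In MIAPACA2 0 of the 9 passed in either direction.

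TOPBP1 is the scaffold that switches on ATR at stalled forks. Levels of TOPBP1 in BXPC3 were 129, 113, 117 and 114 CPM with AM-9747, against 88.3, 90.5, 82.3 and 54.4 CPM with vehicle (log2 fold change 0.59 ± 0.16, adjusted p 0.02203). In PSN1, TOPBP1 stood at 86.9, 76.8, 71.99 and 66.3 CPM with AM-9747, against 35.2, 40.6, 18.3 and 36.1 CPM with vehicle (log2 fold change 1.21 ± 0.26, adjusted p 0.01896). In both lines each AM-9747 library exceeded each vehicle library, and in MIAPACA2 the groups overlapped, at 92.9, 107, 96.99 and 98.1 CPM with AM-9747 and 65.03, 99.4, 85.7 and 62.7 CPM with vehicle (0.34 ± 0.16, adjusted p 0.185). The BXPC3 call ended without any 1 of AM-9747 libraries 3 and 4 or vehicle library 3 (adjusted p up to 0.0567), and the PSN1 call ended without any 1 of AM-9747 libraries 1, 2 and 4 or vehicle library 4 (adjusted p up to 0.0669).

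HUS1 is a subunit of the ring-shaped checkpoint clamp that also holds RAD9A. Levels of HUS1 in BXPC3 were 22.5, 23.1, 20.9 and 24.3 CPM with AM-9747, against 13.7, 15.03, 14.6 and 14.9 CPM with vehicle (log2 fold change 0.64 ± 0.11, adjusted p 0.00217). In PSN1, HUS1 stood at 25.9, 23.6, 14.1 and 17.7 CPM with AM-9747, against 11.3, 2.69, 8.34 and 6.42 CPM with vehicle (log2 fold change 1.498 ± 0.41, adjusted p 0.0443). Neither pair of groups overlaps, but vehicle values varied far more in PSN1 than in BXPC3. The BXPC3 call held with each library left out, while the PSN1 call ended without any 1 of AM-9747 libraries 1, 2, 3 and 4 or vehicle libraries 2, 3 and 4 (adjusted p up to 0.136). In MIAPACA2 HUS1 stood at 9.04, 12.6, 15.4 and 13.1 CPM with AM-9747 and 10.6, 12.9, 11.4 and 10.2 CPM with vehicle (0.15 ± 0.18, adjusted p 0.611), and RAD9A did not pass in any line (log2 fold changes -0.09, 0.30 and -0.12 in BXPC3, MIAPACA2 and PSN1).

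The mediators that assemble on damaged chromatin did not pass. H2AX, the histone variant that ATM phosphorylates, averaged 43.4 ± 12.4 CPM with AM-9747 and 72.8 ± 24.5 CPM with vehicle in MIAPACA2 (log2 fold change -0.75 ± 0.27, adjusted p 0.09003), with overlapping groups. For RNF8, a ubiquitin ligase recruited by MDC1, PSN1 gave 0.84 ± 0.35, adjusted p 0.146. TP53BP1, which favours end joining over resection, gave 0.32 ± 0.14, adjusted p 0.1199 in BXPC3, where each AM-9747 library exceeded each vehicle library, and it shares 28.7% of its exon bases with TUBGCP4 on the opposite strand.

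**Figure D2:**
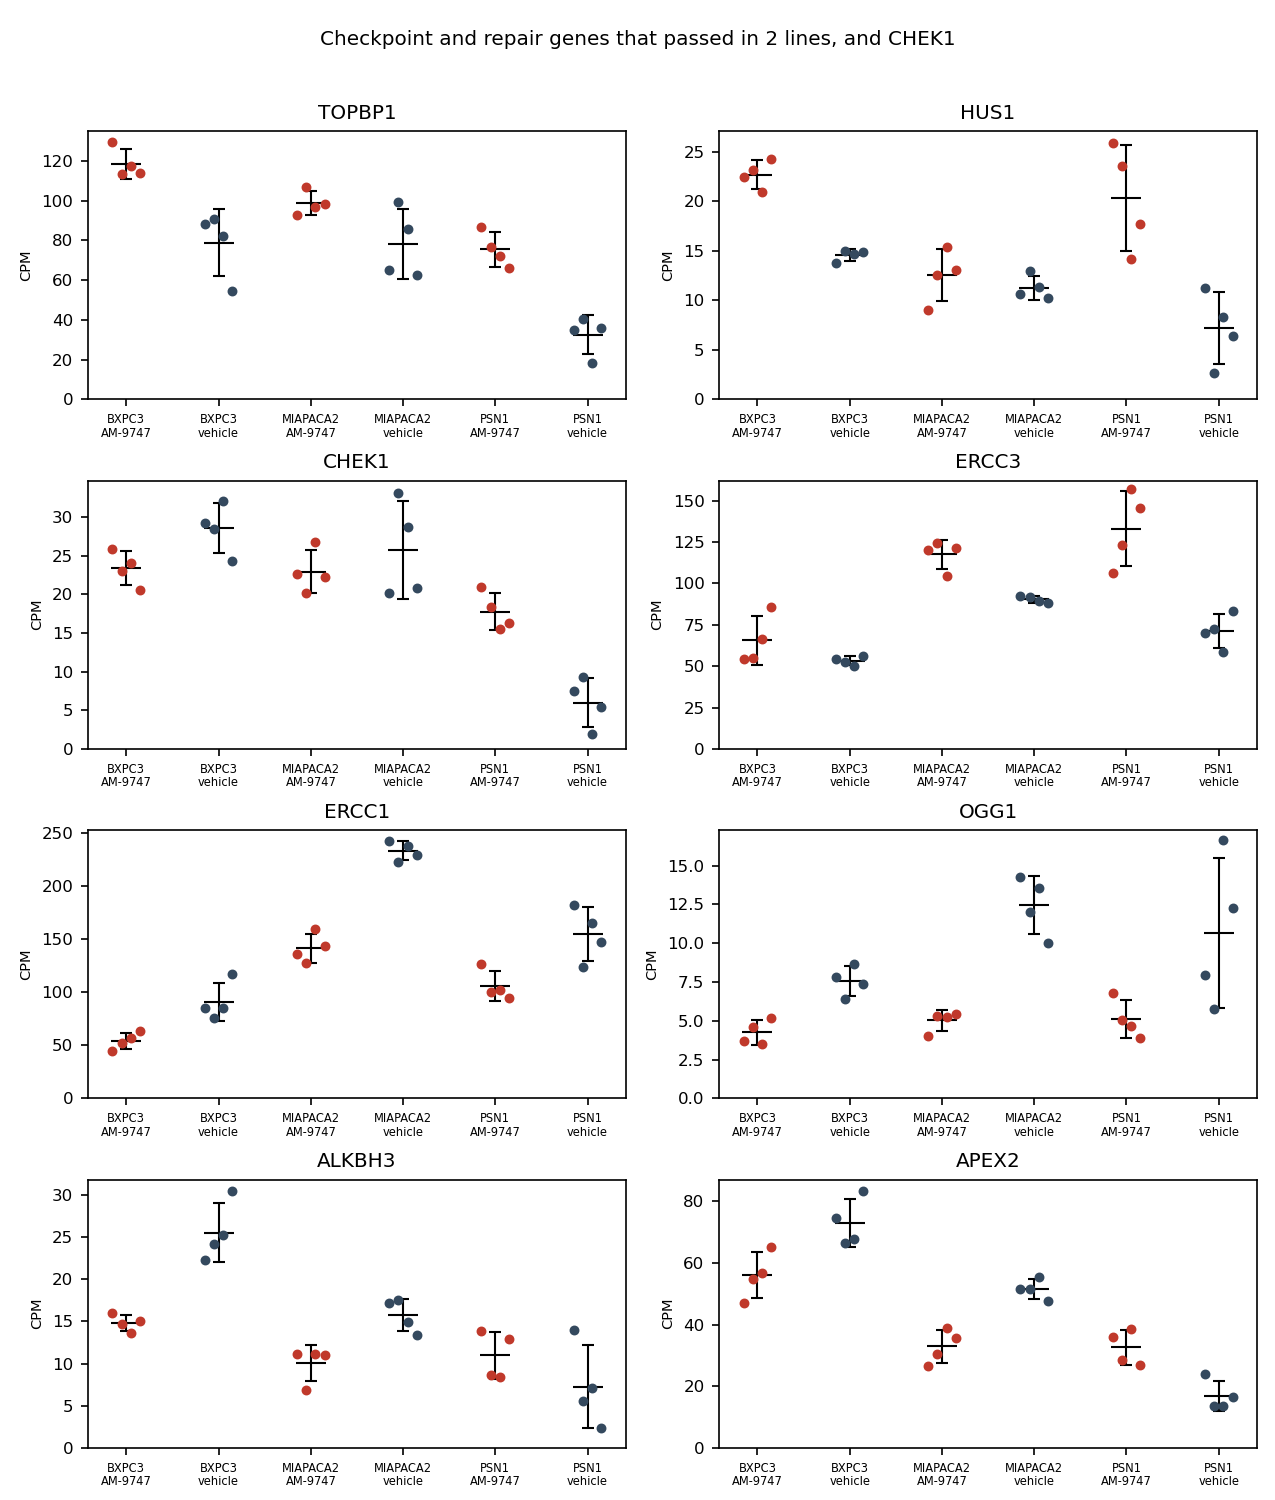
CPM per library (points) with group mean ± SD (bars) for TOPBP1, HUS1, CHEK1, ERCC3, ERCC1, OGG1, ALKBH3 and APEX2, AM-9747 beside vehicle in each line (4 libraries per group). TOPBP1 and HUS1 are higher with AM-9747 in BXPC3 and PSN1, ERCC1, OGG1 and ALKBH3 are lower in BXPC3 and MIAPACA2, and APEX2 is lower in MIAPACA2 and higher in PSN1.

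End joining had the fewest calls of the 8 role groups. Of its 8 genes, 0 passed in BXPC3 and in PSN1, and LIG4 was higher with AM-9747 in MIAPACA2.

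LIG4 is the ligase that seals the joined ends together with XRCC4. Levels of LIG4 in MIAPACA2 were 49.2, 61.6, 27.2 and 47.5 CPM with AM-9747, against 31.3, 18.97, 18.7 and 31.4 CPM with vehicle (log2 fold change 0.89 ± 0.26, adjusted p 0.0456). AM-9747 library 3 lies below vehicle libraries 1 and 4, so the groups overlap. The call ended without any 1 of AM-9747 libraries 1, 2 and 4 or vehicle libraries 1, 2 and 3 (adjusted p up to 0.138). LIG4 stood at 15.3, 17.97, 24.9 and 21.4 CPM with AM-9747 and 23.1, 46.2, 16.1 and 34.3 CPM with vehicle in PSN1 (-0.59 ± 0.33, adjusted p 0.273) and gave -0.00 ± 0.24, adjusted p 0.992 in BXPC3.

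The Ku subunits XRCC5 and XRCC6 and the kinase PRKDC, which together bind and hold broken ends, had large but uncalled differences in PSN1. XRCC5 stood at 332, 255, 163 and 209.6 CPM with AM-9747 and 212, 65.8, 56.3 and 76.2 CPM with vehicle (log2 fold change 1.23 ± 0.42, adjusted p 0.0896). PRKDC stood at 183, 117, 103 and 93.3 CPM with AM-9747 and 104, 45.7, 28.8 and 44.7 CPM with vehicle (1.16 ± 0.38, adjusted p 0.0805). For both genes vehicle library 1, the one with the lowest mitochondrial share in its group, lies within the AM-9747 range, and the other 3 vehicle libraries lie below that range. XRCC6 gave 0.67 ± 0.37, adjusted p 0.268 in PSN1. XRCC4, the partner of LIG4, had 0 counts in PSN1 vehicle libraries 2 and 3 and 6.95 and 1.404 CPM in libraries 1 and 4, against 15.05, 9, 4.01 and 6.12 CPM with AM-9747, and did not pass (adjusted p 0.324). DCLRE1C, the nuclease Artemis, and PAXX had log2 fold changes of -0.74 ± 0.32 and -0.93 ± 0.43 in PSN1 (adjusted p 0.163 and 0.1898), the opposite sign to XRCC5.

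Mismatch repair genes were lower with AM-9747 in BXPC3. MSH3, MSH6, PMS2 and MLH3 passed there, 4 of the 5, with log2 fold changes of -0.59 to -0.46. PMS1 was lower in MIAPACA2, and 0 of the 5 passed in PSN1.

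MSH6 and MSH3 act in the recognition of base mismatches and small loops. MSH3 averaged 10.7 ± 0.771 CPM with AM-9747 and 16.2 ± 1.505 CPM with vehicle in BXPC3 (SD, n = 4 each; log2 fold change -0.59 ± 0.13, adjusted p 0.00673), without overlap. MSH6 averaged 57.5 ± 10.4 CPM with AM-9747 and 85.3 ± 14.5 CPM with vehicle (log2 fold change -0.57 ± 0.17, adjusted p 0.0315), where the highest AM-9747 library exceeded the lowest vehicle library, and its call ended without any 1 of AM-9747 libraries 2, 3 and 4 or vehicle libraries 1, 2 and 3 (adjusted p up to 0.09101). Both had log2 fold changes of the same sign in MIAPACA2 that did not pass (-0.40 ± 0.14, adjusted p 0.08504 for MSH3 and -0.51 ± 0.17, adjusted p 0.0776 for MSH6), and both were above 0 in PSN1 (0.31 ± 0.48, adjusted p 0.717 and 0.42 ± 0.27, adjusted p 0.338).

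PMS2, MLH3 and PMS1 belong to the MutL family, which acts after mismatches are recognised. PMS2 averaged 24.7 ± 1.71 CPM with AM-9747 and 35.8 ± 2.16 CPM with vehicle in BXPC3 (log2 fold change -0.54 ± 0.11, adjusted p 0.005498), without overlap; PMS2 has near-identical pseudogene copies, so its counts are uncertain. MLH3 averaged 16 ± 1.56 CPM with AM-9747 and 22 ± 2.03 CPM with vehicle (log2 fold change -0.46 ± 0.13, adjusted p 0.0213), and its call ended without any 1 of AM-9747 libraries 2 and 3 or vehicle libraries 1, 2 and 3 (adjusted p up to 0.0727). PMS1 stood at 26.3, 31.1, 28.5 and 25.5 CPM with AM-9747 in MIAPACA2, against 38.5, 43.3, 39.4 and 40.8 CPM with vehicle (log2 fold change -0.54 ± 0.12, adjusted p 0.0143). Each MIAPACA2 vehicle library exceeded each AM-9747 library for PMS1, and the call ended without AM-9747 library 1 (adjusted p up to 0.0606). In PSN1 PMS1 stood at 19.3, 20.9, 22.01 and 27.6 CPM with AM-9747 and 20.7, 19.4, 19.2 and 19.3 CPM with vehicle (0.19 ± 0.22, adjusted p 0.6102), and in BXPC3 at 12.5, 12.4, 14.4 and 13.6 CPM with AM-9747 and 14.8, 14.3, 15.8 and 14.96 CPM with vehicle (-0.18 ± 0.12, adjusted p 0.284).

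Of the nucleotide excision repair genes, XPC, XPA and ERCC1 were lower with AM-9747 in BXPC3, ERCC1 was lower and DDB2 and ERCC3 higher in MIAPACA2, and ERCC3 was higher in PSN1. The 11 genes thus gave 0 higher and 3 lower, 2 higher and 1 lower, and 1 higher and 0 lower in BXPC3, MIAPACA2 and PSN1.

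XPC finds the distorted helix and XPA checks the damage before incision. XPC stood at 9.05, 8.55, 8.01 and 11.04 CPM with AM-9747 in BXPC3, against 20.8, 18.6, 19.7 and 15.7 CPM with vehicle (log2 fold change -1.03 ± 0.15, adjusted p 0.000927). XPA stood at 3.35, 3.93, 4.71 and 5.85 CPM with AM-9747, against 8.87, 9.53, 8.48 and 9.56 CPM with vehicle (log2 fold change -1.03 ± 0.19, adjusted p 0.003004). Each vehicle library exceeded each AM-9747 library for both genes, and both calls held with each library left out. In MIAPACA2 XPC stood at 27.1, 25.5, 35.4 and 32.02 CPM with AM-9747 and 28.99, 37.6, 32 and 21.3 CPM with vehicle (0.00 ± 0.18, adjusted p 0.997), and XPA at 10.2, 8.22, 8.46 and 11.96 CPM with AM-9747 and 8.93, 9.38, 11.1 and 9.66 CPM with vehicle (-0.01 ± 0.17, adjusted p 0.985). In PSN1 XPC stood at 23.6, 25.8, 29.7 and 36.4 CPM with AM-9747 and 26.04, 25.8, 21.9 and 31.8 CPM with vehicle (0.13 ± 0.23, adjusted p 0.753), and XPA at 5.89, 4.65, 3.65 and 5.62 CPM with AM-9747 and 7.77, 4.96, 1.19 and 6.67 CPM with vehicle (-0.06 ± 0.52, adjusted p 0.954). XPC shares 23.8% of its exon bases with the antisense gene AC093495.1, which had too few counts in BXPC3 to be tested.

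ERCC1 forms, with ERCC4, the nuclease that cuts on one side of the lesion. In BXPC3, ERCC1 stood at 44.9, 51.7, 56.9 and 63 CPM with AM-9747, against 85.4, 75.3, 85.3 and 117 CPM with vehicle (log2 fold change -0.75 ± 0.16, adjusted p 0.00783). Levels of ERCC1 in MIAPACA2 were 136, 127, 159 and 143 CPM with AM-9747, against 243, 223, 238 and 229 CPM with vehicle (log2 fold change -0.72 ± 0.11, adjusted p 0.00281). In both lines each AM-9747 library lay below each vehicle library, and both calls held with each library left out. In PSN1 ERCC1 stood at 126, 101, 102 and 94.8 CPM with AM-9747 and 182, 123, 165 and 147 CPM with vehicle (-0.55 ± 0.21, adjusted p 0.115), a difference of the same sign that did not pass. Its partner ERCC4 did not pass in any line (-0.29 ± 0.27, adjusted p 0.467 in BXPC3, 0.37 ± 0.22, adjusted p 0.286 in MIAPACA2 and 0.66 ± 0.35, adjusted p 0.242 in PSN1). ERCC1 shares 28.6% of its exon bases with CD3EAP on the opposite strand, which had log2 fold changes of 0.14, 0.19 and 0.07 in BXPC3, MIAPACA2 and PSN1.

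ERCC3 is a helicase of the transcription factor TFIIH that opens the helix. In MIAPACA2, ERCC3 stood at 120.0, 125, 105 and 121 CPM with AM-9747, against 92.3, 91.5, 89.3 and 88 CPM with vehicle (log2 fold change 0.38 ± 0.11, adjusted p 0.0394). Levels of ERCC3 in PSN1 were 106, 123, 157 and 146 CPM with AM-9747, against 69.9, 72.2, 58.5 and 83.6 CPM with vehicle (log2 fold change 0.90 ± 0.21, adjusted p 0.02501). The groups stayed apart in both lines, by a smaller fold in MIAPACA2. In BXPC3 they overlapped, at 54.4, 55.2, 66.7 and 85.96 CPM with AM-9747 and 54.6, 52.3, 49.99 and 56.3 CPM with vehicle (0.30 ± 0.16, adjusted p 0.183). The MIAPACA2 call ended without any 1 of AM-9747 libraries 1, 2 and 4 or vehicle libraries 1, 2, 3 and 4 (adjusted p up to 0.122), and the PSN1 call ended without any 1 of AM-9747 libraries 2, 3 and 4 or vehicle libraries 2 and 4 (adjusted p up to 0.08598).

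DDB2, the subunit that recognises ultraviolet lesions on chromatin and a known target of p53, was higher with AM-9747 in MIAPACA2. There it stood at 37.9, 41.3, 32.8 and 37.3 CPM with AM-9747, against 20.9, 20.4, 20.9 and 20.5 CPM with vehicle (log2 fold change 0.85 ± 0.12, adjusted p 0.00156), and the call held with each library left out. The 4 vehicle libraries span less than 1 CPM and all AM-9747 libraries lie above them. In BXPC3 DDB2 stood at 56.5, 70.7, 77.6 and 101 CPM with AM-9747 and 77.2, 76.5, 76.4 and 85.4 CPM with vehicle (-0.04 ± 0.17, adjusted p 0.869), and in PSN1 at 10.6, 15.7, 17.4 and 20.8 CPM with AM-9747 and 7.96, 17.3, 11.5 and 9.33 CPM with vehicle (0.49 ± 0.33, adjusted p 0.359). Over a list of 16 other p53 target genes, 1 was higher and 1 lower in MIAPACA2 (GDF15 2.02 ± 0.36 and FDXR -1.30 ± 0.16). GDF15 was low there, at 4.05 CPM with AM-9747 and 0.997 CPM with vehicle. In BXPC3 2 were higher and 1 lower, and in PSN1 0 were higher and 2 lower. Of all genes tested, 6.33% were higher and 7.47% lower in MIAPACA2, 13.1% and 16.0% in BXPC3, and 4.49% and 5.53% in PSN1.

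The DNA glycosylases, which cut single damaged bases from their sugar, were lower where called. NTHL1, OGG1 and UNG were lower with AM-9747 in BXPC3 and OGG1 in MIAPACA2, and 0 of the 7 were called in PSN1.

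OGG1 removes oxidised guanine. In BXPC3, OGG1 stood at 3.701, 4.61, 3.495 and 5.19 CPM with AM-9747, against 7.83, 6.38, 8.67 and 7.35 CPM with vehicle (log2 fold change -0.83 ± 0.18, adjusted p 0.00771). Levels of OGG1 in MIAPACA2 were 4.05, 5.33, 5.27 and 5.44 CPM with AM-9747, against 14.3, 11.99, 13.6 and 10.01 CPM with vehicle (log2 fold change -1.31 ± 0.18, adjusted p 0.00137). Neither pair of groups overlaps, and both calls held with each library left out. In PSN1 OGG1 stood at 6.81, 5.05, 4.69 and 3.86 CPM with AM-9747 and 7.96, 5.75, 16.6 and 12.2 CPM with vehicle (-1.06 ± 0.40, adjusted p 0.112), of the same sign, with vehicle libraries 1, 3 and 4 above the AM-9747 range and library 2 within it. OGG1 shares 25% of its exon bases with CAMK1 on the opposite strand, and CAMK1 had log2 fold changes of -0.77 in BXPC3 (adjusted p 0.349), -0.91 in MIAPACA2 (0.00176) and -0.53 in PSN1 (0.360), so reads of the 2 genes cannot be told apart there if strand was not used in counting.

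NTHL1 removes oxidised pyrimidines. In BXPC3, NTHL1 stood at 3.94, 4.83, 4.101 and 4.55 CPM with AM-9747, against 11.01, 7.78, 8.97 and 15.8 CPM with vehicle (log2 fold change -1.32 ± 0.23, adjusted p 0.00213). Vehicle library 4 is the highest and each vehicle library exceeds each AM-9747 library; the call held with each library left out. In MIAPACA2 NTHL1 stood at 10.6, 10.5, 16.2 and 14.9 CPM with AM-9747 and 15.95, 17.5, 16.2 and 14.4 CPM with vehicle (-0.30 ± 0.17, adjusted p 0.288), and in PSN1 at 11.01, 11.5, 8.58 and 7.57 CPM with AM-9747 and 10.6, 10.5, 6.301 and 10.5 CPM with vehicle (0.03 ± 0.31, adjusted p 0.963). TSC2, which covers 16.5% of its exon bases on the opposite strand, was higher in BXPC3 (0.38, adjusted p 0.0179). NEIL1, a glycosylase with overlapping substrates, did not pass in any line (0.05 ± 0.30, adjusted p 0.919 in BXPC3, 0.26 ± 0.26, adjusted p 0.5305 in MIAPACA2 and -0.25 ± 0.43, adjusted p 0.747 in PSN1).

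UNG removes uracil from DNA. Levels of UNG in BXPC3 were 34.3, 31.6, 33.7 and 32.9 CPM with AM-9747, against 42.7, 40.02, 42.5 and 48.7 CPM with vehicle (log2 fold change -0.39 ± 0.11, adjusted p 0.0225). The groups do not overlap, and the call ended without any 1 of AM-9747 libraries 2 and 3 or vehicle libraries 1 and 3 (adjusted p up to 0.0688). In MIAPACA2 UNG stood at 43.8, 40.9, 48.1 and 52.1 CPM with AM-9747 and 48.2, 61.9, 53.2 and 51.8 CPM with vehicle (-0.22 ± 0.13, adjusted p 0.292). In PSN1, UNG stood at 41.3, 58.8, 60.3 and 81.1 CPM with AM-9747 and 36.96, 48, 34.8 and 37.3 CPM with vehicle (0.62 ± 0.24, adjusted p 0.127), the opposite sign, with overlap. MUTYH, TDG and MBD4, which act on mispaired adenine or thymine, did not pass in any line, with MBD4 at -0.30 ± 0.12, adjusted p 0.0977 in BXPC3.

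Among the 8 genes that process abasic sites and single-strand breaks, PARP2 and XRCC1 were higher and LIG3 lower with AM-9747 in BXPC3, APEX2 was lower in MIAPACA2, and APEX2 was higher in PSN1.

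APEX2 is a nuclease that trims blocked ends at abasic sites, a relative of the main abasic endonuclease APEX1. Levels of APEX2 in MIAPACA2 were 26.6, 30.6, 38.97 and 35.6 CPM with AM-9747, against 51.6, 51.6, 55.5 and 47.6 CPM with vehicle (log2 fold change -0.65 ± 0.14, adjusted p 0.0134). In PSN1, APEX2 stood at 36.1, 28.6, 38.7 and 27.1 CPM with AM-9747, against 23.97, 13.7, 13.6 and 16.4 CPM with vehicle (log2 fold change 0.95 ± 0.26, adjusted p 0.0458). The groups do not overlap in either line and their order is opposite. In BXPC3 each AM-9747 library also lay below each vehicle library, at 47.1, 54.99, 56.8 and 65.3 CPM with AM-9747 and 74.7, 66.6, 67.7 and 83.6 CPM with vehicle, but the difference did not pass (-0.38 ± 0.13, adjusted p 0.0563). The MIAPACA2 call ended without any 1 of AM-9747 library 1 or vehicle library 3 (adjusted p up to 0.0531), and the PSN1 call ended without any 1 of AM-9747 libraries 1, 2, 3 and 4 or vehicle libraries 2, 3 and 4 (adjusted p up to 0.134). APEX1 did not pass in any line (-0.25 ± 0.15, adjusted p 0.228 in BXPC3, -0.33 ± 0.13, adjusted p 0.116 in MIAPACA2 and 0.01 ± 0.27, adjusted p 0.982 in PSN1).

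PARP2, which marks strand breaks with poly(ADP-ribose), averaged 59.1 ± 2.39 CPM with AM-9747 and 44.2 ± 1.47 CPM with vehicle in BXPC3 (log2 fold change 0.42 ± 0.10, adjusted p 0.01098), without overlap. Its larger relative PARP1 had the opposite sign there (-0.43 ± 0.17, adjusted p 0.0825). In PSN1 both were above 0 without passing, PARP1 at 165, 92.4, 84.97 and 85.5 CPM with AM-9747 and 92.1, 33.8, 26.6 and 34.8 CPM with vehicle (1.19 ± 0.40, adjusted p 0.08598) and PARP2 at 0.66 ± 0.21, adjusted p 0.0658. The scaffold XRCC1 and its ligase partner LIG3 moved in opposite directions in BXPC3. XRCC1 averaged 91.2 ± 15.3 CPM with AM-9747 and 63.3 ± 13.4 CPM with vehicle (log2 fold change 0.53 ± 0.18, adjusted p 0.0465), where vehicle library 4 lies within the AM-9747 range and the call ended without any 1 of AM-9747 libraries 2, 3 and 4 or vehicle libraries 1, 2 and 3 (adjusted p up to 0.13). LIG3 averaged 17.6 ± 2.51 CPM with AM-9747 and 27.8 ± 2.18 CPM with vehicle (log2 fold change -0.66 ± 0.13, adjusted p 0.005399), without overlap, and the call held with each library left out. LIG3 shares 29.1% of its exon bases with RFFL on the opposite strand (log2 fold change -0.16, adjusted p 0.462), and XRCC1 shares 15.5% with the antisense gene L34079.3, too low in BXPC3 to be tested.

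The direct reversal genes had log2 fold changes below 0 in all cases except ALKBH3 in PSN1. MGMT and ALKBH3 were lower with AM-9747 in BXPC3 and ALKBH3 in MIAPACA2.

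MGMT takes alkyl groups off guanine onto itself. Levels of MGMT in BXPC3 were 7.02, 8.701, 9.77 and 11.9 CPM with AM-9747, against 13.9, 13.02, 14.6 and 26.4 CPM with vehicle (log2 fold change -0.86 ± 0.25, adjusted p 0.029). Vehicle library 4 stands far above the other vehicle libraries, which still exceed each AM-9747 library; the call ended without any 1 of AM-9747 libraries 1, 2 and 3 (adjusted p up to 0.0783). In MIAPACA2 MGMT stood at 32.2, 29.8, 28.9 and 35.4 CPM with AM-9747 and 50.8, 33.4, 33.8 and 43.4 CPM with vehicle (-0.35 ± 0.16, adjusted p 0.1695), and in PSN1 at 7.51, 11.3, 7.93 and 8.83 CPM with AM-9747 and 15.7, 6.68, 12.4 and 14.04 CPM with vehicle (-0.46 ± 0.33, adjusted p 0.395).

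ALKBH3 is a demethylase of alkylated bases. In BXPC3, ALKBH3 stood at 15.97, 14.7, 13.6 and 15.04 CPM with AM-9747, against 22.3, 24.2, 25.2 and 30.4 CPM with vehicle (log2 fold change -0.78 ± 0.13, adjusted p 0.0019). Levels of ALKBH3 in MIAPACA2 were 11.2, 6.89, 11.2 and 10.99 CPM with AM-9747, against 17.2, 17.5, 14.96 and 13.4 CPM with vehicle (log2 fold change -0.65 ± 0.19, adjusted p 0.0409). Neither pair of groups overlaps. The BXPC3 call held with each library left out, and the MIAPACA2 call ended without any 1 of AM-9747 libraries 1, 2 and 4 or vehicle libraries 1, 2 and 3 (adjusted p up to 0.09602). In PSN1 the groups overlapped, at 13.9, 8.696, 8.41 and 12.9 CPM with AM-9747 and 14.03, 5.52, 7.15 and 2.42 CPM with vehicle (0.59 ± 0.48, adjusted p 0.452). Its relative ALKBH2 did not pass in any line (-0.06 ± 0.33, adjusted p 0.906 in BXPC3, -0.16 ± 0.20, adjusted p 0.634 in MIAPACA2 and -0.42 ± 0.26, adjusted p 0.319 in PSN1).

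**Figure D3:**
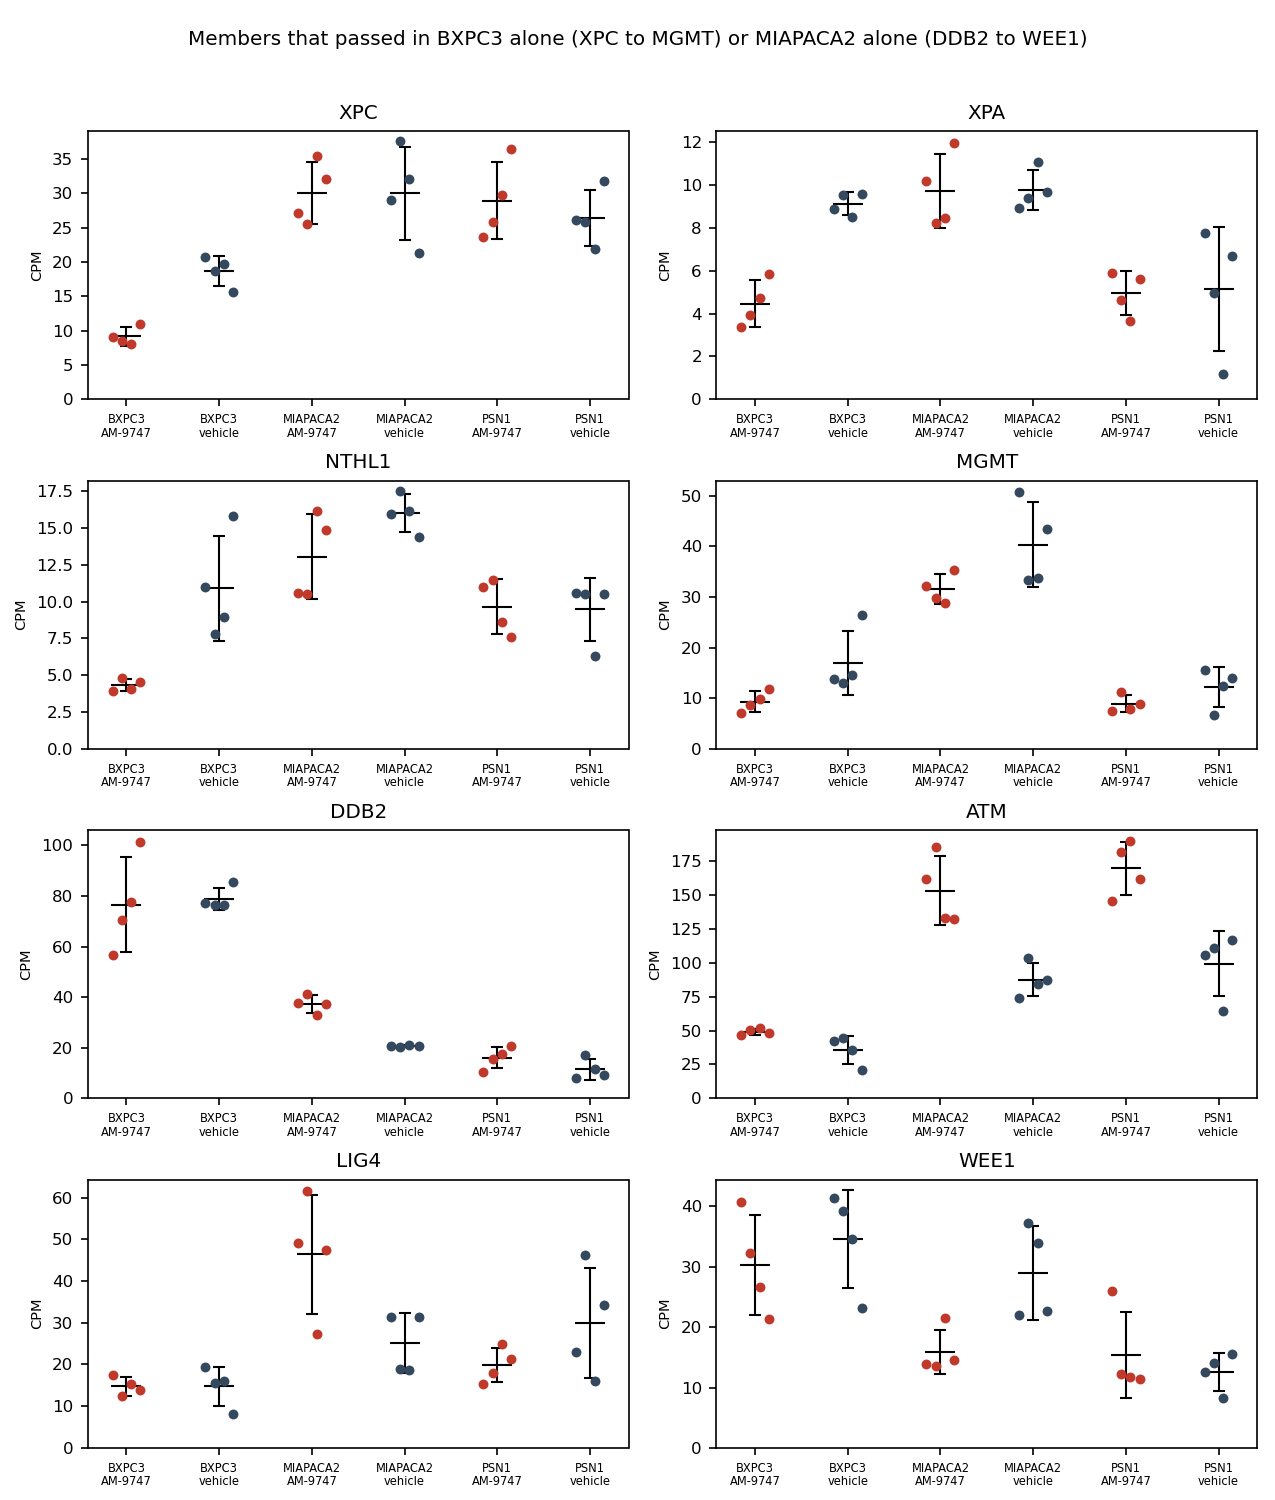
CPM per library (points) with group mean ± SD (bars), AM-9747 beside vehicle in each line (4 libraries per group), for genes called in 1 line alone: XPC, XPA, NTHL1 and MGMT in BXPC3, and DDB2, ATM, LIG4 and WEE1 in MIAPACA2. The BXPC3 genes are lower with AM-9747 in that line; in MIAPACA2 DDB2, ATM and LIG4 are higher and WEE1 lower, with overlap for LIG4.

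The 31 genes called in no line were ATR, CHEK2, MDC1, TP53BP1, RNF8, RNF168, H2AX, RAD9A, RAD17, PRKDC, XRCC4, XRCC5, XRCC6, NHEJ1, DCLRE1C, PAXX, ERCC2, ERCC4, ERCC5, ERCC6, ERCC8, DDB1, MUTYH, NEIL1, TDG, MBD4, APEX1, POLB, PARP1, APTX and ALKBH2. Among genes not called in a line, log2 fold changes ran from -0.43 (PARP1) to 0.51 (H2AX) in BXPC3, from -0.75 (H2AX) to 0.41 (RAD17) in MIAPACA2 and from -1.06 (OGG1) to 2.01 (XRCC4) in PSN1. At an unadjusted p below 0.05 there were 4 such genes of 39 in BXPC3 and 8 of 47 in MIAPACA2. In PSN1 the 11 included ERCC5, the nuclease of the other incision (0.78 ± 0.23, adjusted p 0.0535), and ATM (0.77 ± 0.23, adjusted p 0.0606), both without overlap of the groups. A gene missing the threshold is not shown to be without change, and the wide spread of PSN1 limits what could pass there.

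Whether the responses differed between lines was tested directly with a joint fit of all 24 libraries. That fit pools the spread over lines, so the spread it gives PSN1, the line that varied most, is too small. It held no mitochondrial covariate. By limma-voom with a weight per group, which lets groups differ in spread, 19 of the 57 differed. The share of all genes by limma-voom is not given here, and the 12.1% below belongs to the joint fit. The responses of 9 of the 57 genes differed, where 12.1% of all genes tested did: APEX2 (adjusted p 0.0005702), CHEK1 (0.00511), XPC (0.00987), UNG (0.0123), PARP1 (0.0205), NTHL1 (0.0222), XRCC5 (0.0331), PMS1 (0.04305) and MSH6 (0.0484). For APEX2, CHEK1 and UNG, PSN1 stood apart from both other lines by the joint fit. The log2 response of APEX2 gave -1.33 ± 0.26 for BXPC3 minus PSN1 (adjusted p 0.00327) and -1.59 ± 0.26 for MIAPACA2 minus PSN1 (0.000415), and 0.26 ± 0.26 for BXPC3 minus MIAPACA2, which did not pass (0.807). CHEK1 gave -1.85 ± 0.40 for BXPC3 minus PSN1 (0.00645) and -1.73 ± 0.40 for MIAPACA2 minus PSN1 (0.00793). UNG gave -1.01 ± 0.24 (0.0113) and -0.84 ± 0.24 (0.0268) for the same differences. For PARP1 and XRCC5, called in no line by themselves, PSN1 also stood apart from both other lines. PARP1 gave -1.62 ± 0.45 for BXPC3 minus PSN1 (0.0294) and -1.68 ± 0.45 for MIAPACA2 minus PSN1 (0.0207). XRCC5 gave -1.43 ± 0.42 (0.0367) and -1.38 ± 0.42 (0.0369) for the same differences.

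For XPC, BXPC3 stood apart from both other lines, and for NTHL1 it was shown to differ from PSN1 alone. XPC gave -1.03 ± 0.27 for BXPC3 minus MIAPACA2 (adjusted p 0.0457) and -1.16 ± 0.27 for BXPC3 minus PSN1 (0.0111), against -0.13 ± 0.27 for MIAPACA2 minus PSN1 (0.837). NTHL1 gave -1.35 ± 0.34 for BXPC3 minus PSN1 (0.0175) and -1.03 ± 0.34 for BXPC3 minus MIAPACA2, which did not pass (0.135). For OGG1, ERCC1 and ALKBH3, lower in 2 lines, the responses were not shown to differ (adjusted p 0.6603, 0.777 and 0.07098). With each library left out in turn, the differences of APEX2, CHEK1, XPC and UNG passed in each case. MSH6 and PMS1 lost theirs in 17 and 20 of the 24 cases (adjusted p up to 0.144 and 0.115) and XRCC5 in 12 (up to 0.0934). The difference of PARP1 ended without PSN1 AM-9747 library 1 or PSN1 vehicle libraries 2 or 4 (up to 0.0682), and that of NTHL1 without BXPC3 AM-9747 library 3 or BXPC3 vehicle library 4 (up to 0.0551).

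Vehicle levels differed between lines for most of the 57 genes, as for most genes tested. In the joint fit 47 of the 57 genes differed between vehicle groups, where 76.4% of all genes tested did. Its pooled spread is too small for PSN1, and so are the p-values of comparisons with PSN1. Of the 57, 6 were higher and 15 lower in BXPC3 than in MIAPACA2 (50.3% of all genes differed). Against PSN1, 22 were higher and 13 lower in BXPC3 (62.5%), and 31 higher and 7 lower in MIAPACA2 (54.4%). Over all 22883 genes tested, 6014 were higher and 5498 lower in BXPC3 than in MIAPACA2. Against PSN1, 7258 of all genes were higher and 7038 lower in BXPC3, and 6244 higher and 6215 lower in MIAPACA2. No test of these counts was made. DDB2 averaged 78.9 ± 4.37 CPM in BXPC3, 20.7 ± 0.253 in MIAPACA2 and 11.5 ± 4.12 in PSN1 (SD, n = 4 each; log2 2.78 ± 0.23 for BXPC3 minus PSN1, adjusted p 4.86e-10), and MIAPACA2 exceeded PSN1 by 0.85 ± 0.22 (0.002299). APEX2 averaged 73.1 ± 7.83 CPM in BXPC3, 51.6 ± 3.22 in MIAPACA2 and 16.9 ± 4.88 in PSN1 (2.11 ± 0.19 for BXPC3 minus PSN1, adjusted p 1.97e-09; 0.50 ± 0.18 for BXPC3 minus MIAPACA2, 0.0248). Thus APEX2 was called higher with AM-9747 in the line with its lowest vehicle level.

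PMS1 was highest in MIAPACA2, at 40.5 ± 2.11 CPM against 19.7 ± 0.691 in PSN1 and 14.97 ± 0.657 in BXPC3 (1.04 ± 0.14 for MIAPACA2 minus PSN1, adjusted p 1.35e-06; -0.39 ± 0.14 for BXPC3 minus PSN1, 0.0184). ALKBH2 was highest in PSN1, where vehicle libraries stood at 33.5, 43.3, 66.4 and 34.9 CPM, against 10.3, 9.46, 9.36 and 13.3 in MIAPACA2 and 5.92, 4.87, 6.53 and 13.3 in BXPC3 (-2.07 ± 0.29 for MIAPACA2 minus PSN1, adjusted p 2.54e-06). The ALKBH2 levels of BXPC3 and MIAPACA2 overlapped and were not shown to differ (-0.47 ± 0.28, adjusted p 0.175). With AM-9747 the order was the same, with ALKBH2 at 27.5, 33.4, 38.3 and 33.6 CPM in PSN1, 7.47, 8.84, 9.36 and 12.4 in MIAPACA2 and 5.24, 6.19, 7.54 and 10.3 in BXPC3. TP53BP1, APEX1 and APTX had the largest adjusted p among the genes whose vehicle levels were not shown to differ (0.349, 0.684 and 0.8004).

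Levels of different genes were compared per kilobase of annotated exon, not of the transcripts present, so their order is approximate. On that scale XRCC6, at 113 CPM per kb with AM-9747 and 111.6 with vehicle, and APEX1, at 57.2 with AM-9747 and 68.3 with vehicle, led the 57 in BXPC3. In MIAPACA2 XRCC6 had 64.6 CPM per kb with AM-9747 and 91.3 with vehicle, and APEX1 had 49.99 with AM-9747 and 62.95 with vehicle. In PSN1 APEX1 led, at 71.9 CPM per kb with AM-9747 and 71.3 with vehicle, and XRCC6 had 50.8 with AM-9747 and 31.9 with vehicle. The median gene of the 57 stood between 4.33 and 5.97 CPM per kb in each group. OGG1 was among the 4 lowest in each group except PSN1 vehicle, at 0.487 CPM per kb with AM-9747 and 0.865 with vehicle in BXPC3.

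The 57 genes were set beside 63 further genes of the same pathways, 28 genes of DNA replication and S phase and 16 p53 targets. Further repair genes gave 3 higher and 17 lower of 62 tested in BXPC3, 2 and 13 of 61 in MIAPACA2, and 10 and 1 of 61 in PSN1. In BXPC3 XAB2 (0.88 ± 0.17) and CDK7 (0.76 ± 0.14) were higher and RFC5 (-1.20 ± 0.11) lower. In MIAPACA2 ETAA1 (0.86 ± 0.17) and XAB2 (0.74 ± 0.12) were higher and PKMYT1 (-1.28 ± 0.25) and FEN1 (-0.85 ± 0.18) lower. In PSN1 FEN1 (1.95 ± 0.31) and POLQ (1.69 ± 0.42) were higher and MPG (-1.31 ± 0.21) lower. FEN1, the flap nuclease of replication and long-patch base excision, was thus called in opposite directions in MIAPACA2 and PSN1, as APEX2 was. PCNA, RFC3 and CDC25A of the same list were also called lower in MIAPACA2 and higher in PSN1.

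S-phase genes were mostly lower with AM-9747 in BXPC3 and MIAPACA2 and, where called, higher in PSN1. Of 27 tested, 2 were higher and 16 lower in BXPC3 (median log2 fold change -0.47), 0 and 16 in MIAPACA2 (-0.81), and 11 and 0 in PSN1 (1.07). Their summed level was 1014 to 1070 CPM with AM-9747 and 1306 to 1402 CPM with vehicle in BXPC3. It was 718 to 997 CPM with AM-9747 and 1222 to 1813 CPM with vehicle in MIAPACA2, and 649 to 862 CPM with AM-9747 and 336 to 443 CPM with vehicle in PSN1. The groups do not overlap in any line, and in PSN1 they stand in the opposite order. Examples are POLA2 in BXPC3 (-1.63 ± 0.16), CDC45 in MIAPACA2 (-1.99 ± 0.16) and RRM1 in PSN1 (2.29 ± 0.55). Of these 27 genes, 21 had responses that differed between lines, against 23 of 62 further repair genes, 9 of the 57 and 5 of 16 p53 targets. The part of S-phase genes in the results for the 57 was not tested.

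**Figure D4:**
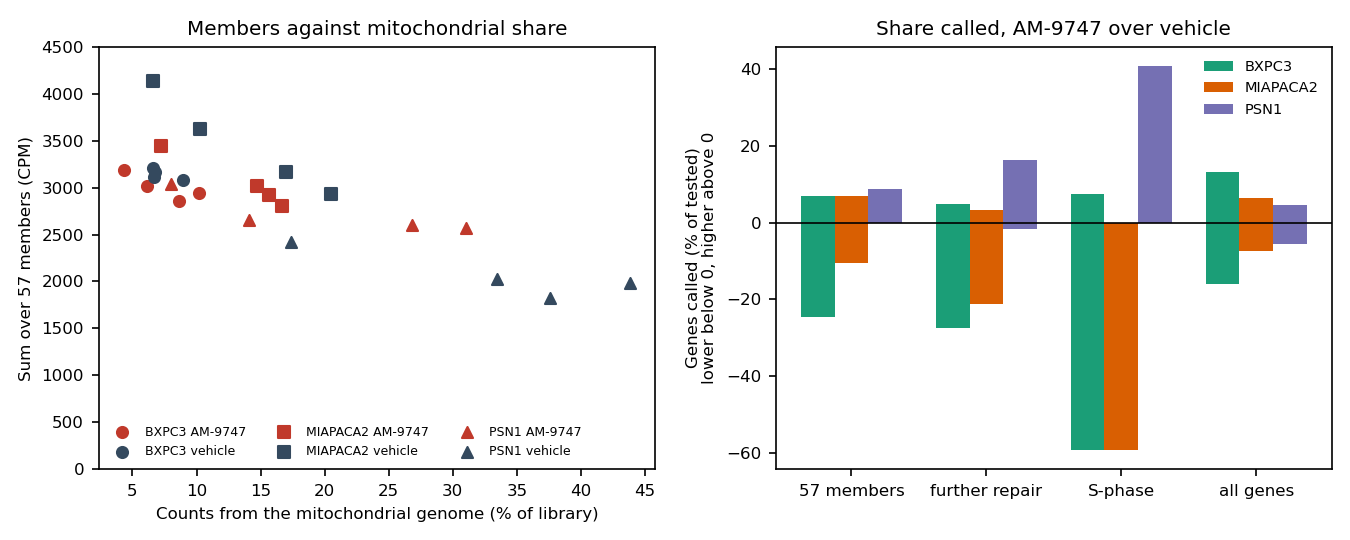
Left, summed CPM of the 57 genes (vertical axis) against the share of counts from the mitochondrial genome in percent (horizontal axis), 1 point per library; right, percent of genes called higher and lower with AM-9747 in each line for the 57 genes, further repair genes, S-phase genes and all genes tested. PSN1 vehicle libraries combine the lowest sums, 1826 to 2424 CPM, with shares of 17.4 to 43.8%, and the shares of S-phase genes called lower in BXPC3 and MIAPACA2 and called higher in PSN1 are the largest of the 4 sets in that direction.

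In PSN1 the mitochondrial share ran lower with AM-9747 than with vehicle, with overlapping ranges. The summed level of the 57 genes was higher there with AM-9747, without overlap. The part of the mitochondrial share in that sum was not tested. For single genes the share was fitted as a covariate within each line. The 57 genes summed to 2573 to 3035 CPM with AM-9747 and 1826 to 2424 CPM with vehicle in PSN1. They summed to 2800 to 3440 CPM with AM-9747 and 2934 to 4138 CPM with vehicle in MIAPACA2, and to 2862 to 3189 CPM with AM-9747 and 3078 to 3208 CPM with vehicle in BXPC3. With the mitochondrial share as a covariate, TOPBP1 (1.11, adjusted p 0.0471) and ERCC3 (1.02, 0.0173) passed in PSN1, while CHEK1 (1.44, 0.117), HUS1 (0.99, 0.123) and APEX2 (0.72, 0.111) did not. Without PSN1 vehicle libraries 2 and 3, the libraries with the highest shares, CHEK1 passed (1.46, adjusted p 0.0397), and TOPBP1 (1.08, 0.0507), HUS1 (1.19, 0.121), ERCC3 (0.79, 0.140) and APEX2 (0.68, 0.229) did not; this alternative was chosen after the data had been seen. The sign was the same in each case. In the joint fit, which pools the spread over lines, 16 of the 57 were higher and 4 lower in PSN1, 2 higher and 4 lower in MIAPACA2, and 2 higher and 7 lower in BXPC3. That fit ended the BXPC3 calls of ALKBH3, HUS1, MLH3, MSH3, MSH6, OGG1, TOPBP1, UNG and XPA (adjusted p 0.0577 to 0.266) and the MIAPACA2 calls of ALKBH3, ERCC3, LIG4 and WEE1 (0.0833 to 0.287). Library totals without scaling ended the MIAPACA2 calls of ALKBH3, APEX2, PMS1 and WEE1 (0.0665 to 0.123), and testing without a filter on low counts ended those of MLH3 and UNG in BXPC3, ERCC3 in MIAPACA2 and APEX2 in PSN1 (0.0569 to 0.0999).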

How the data were processed

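RNA-seq libraries from 3 lines and 6 groups were analysed. The tools named in the submitters' processing notes are fastp 0.19.8, HISAT2 2.2.0, R 4.0.2 and DESeq2 1.34.0, with the build GRCh38, without their order. How counting was done, with or without strand and on which annotation, is not stated there. The authors deposited raw counts per gene, unnormalized. CPM was computed with TMM scaling over the 24 libraries. Each line was tested with edgeR 4.0.16 (R 4.3.3), glmQLFit and glmQLFTest, after filterByExpr by group, with Benjamini-Hochberg adjustment over all genes tested and a threshold of 0.05; differences between lines came from a joint fit. Scripts were tested on simulated data. DESeq2 1.42.0, limma 3.58.1, other scalings and filters, a mitochondrial covariate, a replicate block and leave-one-out fits were alternatives. The members and lists were chosen with earlier results of these data known. Values in every library are given for members called in 2 or more lines, the 4 largest changes per line (mean of at least 1 CPM) and the 4 smallest p of each test between lines. Overlaps came from GENCODE 29 and promoters from RefSeq. No 2 libraries were duplicates. Some results are not reported here.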

Additional observations from a re-analysis of the deposited data

Results flagged for a closer look

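In 8 of 108 groups of 4 libraries, the gap of the highest or lowest library to its neighbour exceeded Dixon's critical value; chance flags about 1 in 20 groups. WEE1 stood at 21.4 CPM in MIAPACA2 AM-9747 library 3, where the other 3 lay between 13.6 and 14.6 CPM, and at 26.1 CPM in PSN1 AM-9747 library 1, where the others lay between 11.4 and 12.2 CPM. OGG1 had 4.05 CPM in MIAPACA2 AM-9747 library 1, below the 5.27 to 5.44 CPM of the others. ALKBH3 had 6.89 CPM in MIAPACA2 AM-9747 library 2, against 10.99 to 11.2 CPM in the others. Among vehicle libraries, MGMT had 26.4 CPM in BXPC3 library 4 (others 13.0 to 14.6 CPM) and DDB2 had 85.4 CPM in the same library (others 76.4 to 77.2 CPM). NTHL1 had 6.30 CPM in PSN1 vehicle library 3 (others 10.5 to 10.6 CPM) and PMS1 had 20.7 CPM in PSN1 vehicle library 1 (others 19.2 to 19.4 CPM).

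The response to AM-9747 differed between lines, by the joint edgeR test of the difference, for 9 genes. The adjusted p was 0.000570 for APEX2, 0.00511 for CHEK1, 0.00987 for XPC, 0.0123 for UNG, 0.0205 for PARP1, 0.0222 for NTHL1, 0.0331 for XRCC5, 0.0430 for PMS1 and 0.0484 for MSH6.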

How the results depend on the processing

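No called gene named in the text changed sign under the alternatives tried. With library totals the balance of members in MIAPACA2 turned, to 5 higher and 2 lower, and the median of all genes there to 0.15, against -0.03. In BXPC3 (5143 genes called; members 4 higher and 14 lower), the joint fit gave 2414 genes and 2 and 7 members, limma-voom 9548 genes and 10 and 26, and the mitochondrial covariate 8011 genes and 10 higher. In MIAPACA2 (2498; 4 and 6), the joint fit gave 1151 genes and 2 higher, limma-voom 5107 genes and 13 lower, and the covariate 6493 genes and 8 and 18 members. In PSN1 (1834; 5 and 0), the joint fit gave 5762 genes and 16 and 4 members, DESeq2 3681 and 11 and 2, limma-voom 5657 and 15 and 4, library totals 9 higher, the covariate 1 lower, and a mean of at least 5 CPM 8 higher. Leaving out PSN1 vehicle libraries 2 and 3, added after the data were seen, gave 723 genes and 1 higher. TMM factors from each line alone, also added then, moved no count by over 1.5 times and ended no call. The difference between lines (2764 genes; 9 members) became 4890 genes and 15 members by DESeq2's likelihood ratio test, 19 members by limma-voom with a weight per group, 15 with library totals and 14 at 5 CPM; vehicle levels gave 10578 genes at 5 CPM, against 17485. The cause of these changes was not tested. Where a count of members stands alone, the count of all genes under that setting is not given here. With each replicate left out in turn, counts ran from 3686 to 6735 genes, 2 to 5 members higher and 10 to 16 lower in BXPC3; 1178 to 3230, 2 to 5 and 2 to 9 in MIAPACA2; 483 to 4454, 0 to 12 and 0 to 2 in PSN1; 1994 to 6105 genes and 5 to 22 members for the difference; and 17023 to 18445 genes and 42 to 48 members for vehicle levels. PSN1 vehicle library 1 gave the highest PSN1 counts when left out. Whether replicate numbers pair the samples was not settled. Deviations of same-numbered libraries correlated at -0.188 to 0.422. AM-9747 libraries 1 and 4 in BXPC3 and 1 and 3 in PSN1 matched vehicle libraries of their own number best. The other AM-9747 libraries of these lines and all those of MIAPACA2 did not. A replicate block gave 3354 genes higher and 3753 lower in BXPC3 (2318 and 2825 without it), with 10 members higher. In MIAPACA2 the block gave 779 genes higher and 925 lower (1146 and 1352 without it) and ended the calls of ALKBH3 and ERCC3. It gave 3367 genes with 12 members higher and 1 lower in PSN1, and 4330 genes with 18 members for the difference. The spread in PSN1 limits which differences could pass.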
